A study of Homo sapiens with 6 samples.

Results

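Mitochondrial ribosomal proteins were followed at the mRNA level in HCCC9810 cells, an established human cholangiocarcinoma (CCA) cell line, after isolinderalactone (ILL) treatment. Members were the rows of the count table whose symbol is MRPL or MRPS followed by a number, with or without a trailing letter, and this rule found 78 of the 19470 genes in the table. The wild-type cells received either 20 μM ILL or its vehicle, DMSO, and were collected for RNA-seq at 24 h, with 3 libraries in each group. The comparison of ILL with control asks how the treatment changed gene expression in CCA cells. A single cell line was used, and the labels do not say whether the libraries of a group came from separate cultures, so p-values measure the spread between these libraries only.

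The mitochondrial ribosome, or mitoribosome, is the machine inside mitochondria that translates the few mRNAs encoded by mitochondrial DNA, all of which specify subunits of the respiratory chain and ATP synthase. Its rRNAs are made in the organelle, but every one of its proteins is encoded in the nucleus, made by cytosolic ribosomes and imported. Some of these proteins descend from the bacterial ancestor of mitochondria, and others were added during mitochondrial evolution. The large subunit joins amino acids at the peptidyl transferase center, and the small subunit reads the mRNA at the decoding center.

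Symbols do not always give the true place of a protein. MRPS30 and MRPS18A belong to the large subunit despite their names, and MRPS36 is now known as a component of the oxoglutarate dehydrogenase complex and not of the ribosome. By current assignments the 78 members held 51 proteins of the large subunit, 26 of the small subunit and MRPS36. In GENCODE release 29 on GRCh38 the genes lay on 21 chromosomes.

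Total counts ranged from 34282764 to 37758569 per library. The share taken by the 10 most counted genes was 5.20% to 5.45% in controls and 8.12% to 8.25% with ILL, and counts were scaled by TMM for this reason. A filter on low counts left 13066 genes for edgeR's quasi-likelihood test, with p-values adjusted by the Benjamini-Hochberg method. All 7 biliary epithelial markers examined had at least 1 FPKM in each library, with summed levels of 5079 to 5203 FPKM in controls and 4585 to 4835 FPKM with ILL. The sum hides opposite changes, since 4 of these genes fell and 3 rose at an adjusted p under 0.05 (edgeR). CDH1 rose most, from 52.6 ± 1.76 FPKM in controls to 210 ± 10.9 FPKM with ILL (SD, n = 3). KRT18 fell most, from 965 ± 25.4 FPKM to 520 ± 11.4 FPKM (SD, n = 3). Of 6 hepatocyte markers only ALB reached 1 FPKM in each library, with the list at 3.44 to 5.27 FPKM in controls and 3.51 to 8.43 FPKM with ILL and CYP3A4 at 0 counts. The list of 9 stromal and immune markers summed to 24.3 to 27.3 FPKM in controls and 67.4 to 69.9 FPKM with ILL. CD68 made up most of the sum, and shares 81.7% of its exonic length with AC016876.2 on the same strand. CD68, COL1A1 and VWF rose and 0 of the 5 tested genes fell at an adjusted p under 0.05 (edgeR). COL1A1 stood at 1.76 ± 0.234 FPKM in controls and 2.46 ± 0.311 FPKM with ILL (SD, n = 3). VWF reached at most 0.079 FPKM. The leukocyte markers PTPRC and CD3E stayed below 0.07 FPKM in each library.

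Of the 78 members, 77 passed the filter on low counts, which asks for about 10 counts in at least 3 libraries, whatever their group. MRPS24, a protein of the small subunit head, was the exception, with 1, 5 and 1 counts in control libraries and 7, 2 and 0 counts in ILL libraries, and no fold change is given for it. In the annotation MRPS24 shares 23.2% of its exonic length with the read-through gene URGCP-MRPS24, so reads of these genes cannot be told apart there.

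The mRNAs of the mitoribosome were lower with ILL almost throughout. Of the 77 members tested, 70 fell and 1 rose at an adjusted p under 0.05, and 6 did not pass the test. The share that fell was 90.9%, against 36.9% of all genes tested, and the share that rose was 1.30%, against 36.2%. In 70 members all 3 ILL libraries lay below all 3 control libraries in CPM, counts scaled to library size, a separation that 38% of all genes tested showed in this direction. These were 69 of the members that fell and MRPS10, while MRPS33, named after its value was seen, fell with overlapping groups. The decreases were moderate in size. The median log2 fold change of the members was -0.60 with quartiles of -0.79 and -0.39, against a median of -0.00117 over all genes tested, and 7 members had a value of -1 or below, 41 a value above -1 and up to -0.5, 26 a value above -0.5 and below 0, and 3 a value above 0. With the cutoffs of the study, which ask for a fold change over 2 or below 0.5 at an adjusted p under 0.05, 7 members or 9.09% were DEGs lower with ILL, which is close to the 11.4% of all genes tested, and no member was a DEG higher with ILL, against 12.5% of all genes tested. The number of these DEGs depended on the setting, from 5 to 12. CPM values are relative to a library's scaled total, so absolute amounts of an mRNA per cell are not known. In bulk RNA, a smaller share of cells that hold an mRNA and less of it per cell cannot be told apart.

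**Figure D1:**
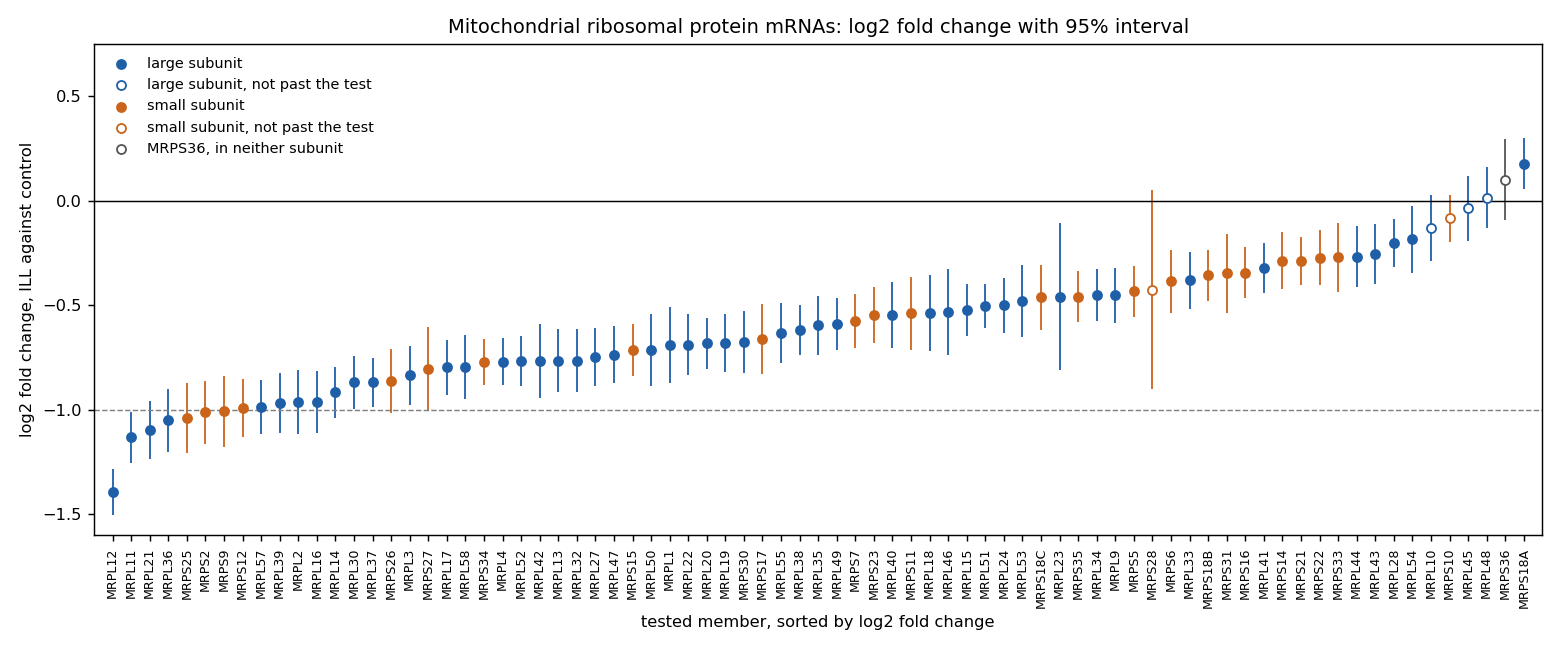
Log2 fold change of each of the 77 tested members (vertical axis, ILL against control), sorted from lowest to highest along the horizontal axis, with 95% intervals from edgeR. Blue marks the large subunit, orange the small subunit and grey MRPS36, and open circles mark the 6 members that did not pass the test. The dashed line at -1 marks a fold change of 0.5. Values run from -1.39 for MRPL12 to 0.18 for MRPS18A.

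Taken as a sum, the members gave 6054, 6040 and 5860 CPM in control libraries and 3890, 3707 and 3947 CPM in ILL libraries. The sum was 5984 ± 108 CPM (SD, n = 3) in controls and 3848 ± 125 CPM (SD, n = 3) with ILL, so that the ILL level was 0.643 of the control level. The 3 ILL libraries lay close together and far below the controls. ILL replicate 2 had the lowest sum and the lowest value of the ILL libraries in 47 of the 77 members, compared with 15 members each for replicates 1 and 3. Between replicates a member's CPM varied by a median coefficient of variation of 3.72% in controls and 5.73% with ILL, and the median standard error of a log2 fold change was 0.07.

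Levels of different members were compared per length, in FPKM, which divides a count by gene length and library total. The median member stood at 44.7 FPKM in control cells and at 30.6 FPKM with ILL, above the median of all genes tested at 5.99 and 5.59 FPKM. The highest levels were those of MRPL12, MRPL51 and MRPS34. MRPL12 stood at 326 ± 14.6 FPKM (SD, n = 3) in controls and 118 ± 4.40 FPKM (SD, n = 3) with ILL, so its place at the top of the order was held only in control cells. MRPL51, a large subunit protein without a bacterial counterpart, was at 240 ± 7.58 FPKM in controls and 161 ± 5.16 FPKM with ILL (SD, n = 3). MRPS34, a mitochondria-specific protein of the small subunit, was at 244 ± 6.47 FPKM in controls and 136 ± 7.46 FPKM with ILL (SD, n = 3). In control cells MRPS34 and MRPL51 did not differ beyond their spread.

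The lowest levels among tested members were those of MRPL23, MRPL42 and MRPS28. MRPL23, at the rim of the exit tunnel, stood at 2.30 ± 0.190 FPKM in controls and 1.59 ± 0.363 FPKM with ILL (SD, n = 3). MRPL42 stood at 4.06 ± 0.568 FPKM in controls and 2.28 ± 0.215 FPKM with ILL (SD, n = 3), a level that rests on the gene length of 15560 bases implied by the deposited table, the longest of all members. The order of the members was nearly the same in both groups, with a Spearman correlation of 0.961 between control and ILL levels across the 77 members, which share libraries and gene lengths. Log2 fold changes had a Spearman correlation of -0.163 with the control level and of -0.0511 with gene length across the same members, given here as descriptions.

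**Figure D2:**
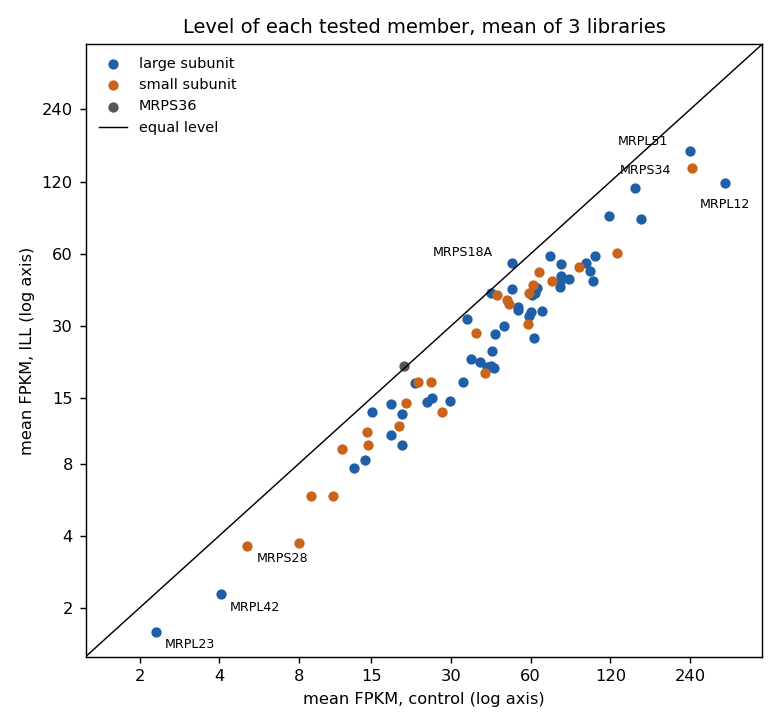
Mean FPKM of each tested member in control cells (horizontal axis) and with ILL (vertical axis), both on log axes and each the mean of 3 libraries, with blue for the large subunit, orange for the small subunit and grey for MRPS36. Most points lie below the line of equal level, MRPL12 moves from 326 FPKM to 118 FPKM, and MRPS18A lies just above the line.

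Within the large subunit, 47 of 51 proteins fell, 1 rose and 3 did not pass the test, with a median log2 fold change of -0.68. Within the small subunit, 23 of 25 tested proteins fell, none rose and 2 did not pass, with a median of -0.46. Summed over the subunit, the large subunit mRNAs stood at 4197 ± 80.8 CPM in controls and 2612 ± 81.4 CPM with ILL (SD, n = 3), a ratio of 0.622. The small subunit mRNAs stood at 1762 ± 26.8 CPM in controls and 1209 ± 39.7 CPM with ILL (SD, n = 3), a ratio of 0.686. A log2 fold change of -0.5 or below was found in 36 large subunit members and in 12 small subunit members. The difference between subunits is a description, and was not tested.

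The stalk of the large subunit, which recruits the GTPase factors of translation, held both the most reduced members and a member that did not pass. MRPL12, the homolog of the bacterial stalk protein L7/L12, had 324, 332 and 306 CPM in control libraries and 122, 127 and 117 CPM in ILL libraries. Its ILL values lay far below the controls and the log2 fold change of -1.39 (95% interval -1.50 to -1.28, adjusted p = 1.99e-17, edgeR's quasi-likelihood test) was the lowest of all members. The MRPL12 gene, at chr17:81703357-81707526 on the plus strand, shares 68.2% of its exonic length with another annotated gene of the same strand, AC139530.2, so its count may include reads of that gene. MRPL11, at the base of the stalk, had 144, 145 and 144 CPM in control libraries and 67.4, 60.2 and 69.8 CPM in ILL libraries, a log2 fold change of -1.13 (SE 0.06, adjusted p = 1.35e-14, same test). MRPL11 is at chr11:66435075-66466738 on the minus strand and overlaps PELI3 on the opposite strand.

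The other stalk proteins changed less. MRPL10, which anchors MRPL12 to the ribosome, had 30.1, 28.7 and 30.8 CPM in control libraries and 28.7, 26.1 and 26.9 CPM in ILL libraries. The groups overlapped by a narrow margin, and MRPL10 did not pass the test at a log2 fold change of -0.13 (95% interval -0.29 to 0.03, adjusted p = 0.125, edgeR). It passed in 4 of 15 alternatives, among them scaling by library size alone at -0.20 (adjusted p = 0.0225, edgeR). MRPL54, a mitochondria-specific neighbor, had 30.7, 30.5 and 29.6 CPM in control libraries and 26.5, 24.9 and 28.5 CPM in ILL libraries, a log2 fold change of -0.18 (adjusted p = 0.0353, edgeR) that did not pass in 5 of 15 alternatives. Over the 5 proteins of the stalk and its base, 4 fell, with a median of -0.48. After the trend of log2 fold change with gene length was removed, this median was -0.16 and the value of MRPL54 was 0.098, above 0.

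All 4 proteins near the peptidyl transferase center fell, with a median log2 fold change of -0.90 and a range of -0.96 to -0.75. MRPL3, whose bacterial homolog reaches toward the catalytic center, had 268, 270 and 249 CPM in control libraries and 150, 126 and 164 CPM in ILL libraries, and fell by 0.84 on the log2 scale (SE 0.07, adjusted p = 8.65e-11, edgeR). The ILL libraries of MRPL3 spread more widely than its controls but did not reach them. MRPL21 and MRPL36, both of bacterial origin, were also DEGs. MRPL21 had 98.3, 109 and 99.3 CPM in control libraries and 51.0, 43.7 and 48.5 CPM in ILL libraries, a log2 fold change of -1.10 (SE 0.07, adjusted p = 1.91e-13, edgeR). MRPL36, the homolog of the short bacterial protein L36, had 55.5, 52.1 and 49.5 CPM in control libraries and 25.8, 23.9 and 26.1 CPM in ILL libraries, a log2 fold change of -1.05 (SE 0.07, adjusted p = 2.26e-12, edgeR). For both genes the ILL libraries lay near 0.5 of the control level with no overlap.

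At the polypeptide exit tunnel, through which new proteins leave, 7 of 8 proteins fell, with a median of -0.59. MRPL45, which ties the tunnel exit to the inner membrane, was the exception, with 50.3, 52.8 and 54.1 CPM in control libraries and 58.0, 46.1 and 49.3 CPM in ILL libraries. Its ILL libraries lay on both sides of the controls, and its log2 fold change was -0.04 (95% interval -0.19 to 0.12, adjusted p = 0.683, edgeR). MRPL44, a protein with an RNase III fold at the tunnel exit, had 42.7, 38.7 and 41.2 CPM in control libraries and 33.2, 35.0 and 33.6 CPM in ILL libraries, a small decrease of -0.27 (adjusted p = 0.00149, edgeR) without overlap. MRPL23 fell by 0.46 on the log2 scale (95% interval -0.81 to -0.11, adjusted p = 0.0190, edgeR), with 262, 280 and 271 counts in control libraries and 217, 209 and 140 counts in ILL libraries. The decrease of MRPL23 leaned on ILL replicate 3, since its value without that library was -0.28 (adjusted p = 0.144), and it did not pass either without control replicate 2.

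The central protuberance, the lobe of the large subunit that faces the head of the small subunit, had 7 of 8 proteins lower with a median of -0.58. MRPL58, a peptidyl-tRNA hydrolase built into this lobe, had 47.3, 41.8 and 48.7 CPM in control libraries and 27.0, 26.0 and 26.5 CPM in ILL libraries, a log2 fold change of -0.79 (adjusted p = 8.06e-10, edgeR). MRPL48 lay nearest to no change of all members, with 51.8, 49.1 and 43.4 CPM in control libraries and 48.5, 47.2 and 49.99 CPM in ILL libraries. The MRPL48 groups overlapped, and its log2 fold change was 0.01 (95% interval -0.13 to 0.16, adjusted p = 0.864, edgeR), with the sign changing under 6 of 15 alternatives. Among large subunit proteins elsewhere, MRPL43 and MRPL28 fell by 0.26 and 0.20 on the log2 scale (adjusted p = 0.00215 and 0.00256, edgeR), the smallest decreases beside MRPL54 among members that passed without overlap.

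In the small subunit 3 members were DEGs and another lay at the cutoff. MRPS12, the homolog of the bacterial decoding protein S12, had 122.7, 131 and 112 CPM in control libraries and 63.8, 55.4 and 64.2 CPM in ILL libraries, and fell by 0.99 on the log2 scale (SE 0.07, adjusted p = 1.93e-12, edgeR). Its ILL libraries were all about 0.5 of the controls, just short of the DEG cutoff. MRPS2, a protein of bacterial origin, had 65.9, 61.9 and 68.1 CPM in control libraries and 29.6, 32.0 and 35.5 CPM in ILL libraries, a log2 fold change of -1.01 (SE 0.07, adjusted p = 5.37e-12, edgeR). MRPS25, which has no bacterial counterpart, had 36.0, 36.7 and 34.4 CPM in control libraries and 18.6, 16.5 and 17.0 CPM in ILL libraries, a log2 fold change of -1.04 (SE 0.08, adjusted p = 2.48e-11, edgeR). MRPS9, named here after its value was seen because it was the seventh DEG, had 46.8, 43.8 and 42.0 CPM in control libraries and 19.3, 22.9 and 23.9 CPM in ILL libraries, with a log2 fold change of -1.01. All 4 genes were separated between groups in each library.

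In the head of the small subunit 6 of 7 tested proteins fell, with a median of -0.35. MRPS10 was the exception, with 94.0, 94.2 and 91.6 CPM in control libraries and 89.7, 87.4 and 86.9 CPM in ILL libraries. Its ILL libraries all lay below the controls by a small margin, but the log2 fold change of -0.08 (95% interval -0.20 to 0.03, adjusted p = 0.171, edgeR) did not pass. MRPS10 passed in 4 of 15 alternatives, among them scaling by library size alone at -0.15 (adjusted p = 0.0153, edgeR). MRPS28 was the other small subunit protein that did not pass, at a log2 fold change of -0.43 with a 95% interval of -0.90 to 0.05 (adjusted p = 0.101, edgeR). It passed in 3 of 15 alternatives, among them the removal of ILL replicate 2 at -0.63 (adjusted p = 0.0302), and was -0.28 without ILL replicate 3. MRPS28 had 3.79, 4.95 and 3.79 CPM in control libraries and 2.94, 3.95 and 2.43 CPM in ILL libraries, the lowest counts of any tested member, with overlap between groups. In the annotation MRPS28 shares 35.8% of its exonic length with AC036214.3 on the same strand, and how reads there were assigned is not known. MRPS22, a mitochondria-specific protein, fell by 0.27 on the log2 scale (adjusted p = 0.000561, edgeR), from 67.7, 70.9 and 63.4 CPM in control libraries to 58.0, 52.8 and 56.5 CPM in ILL libraries.

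**Figure D3:**
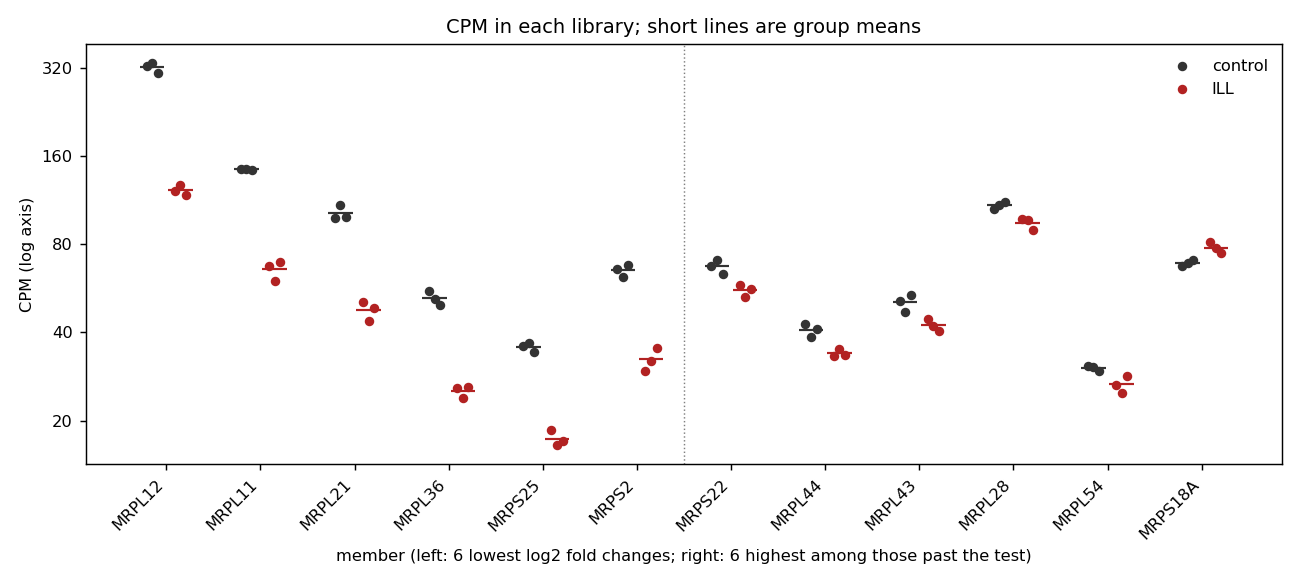
CPM (vertical log axis) in each of the 3 control (dark) and 3 ILL (red) libraries for the 6 members with the lowest log2 fold changes, left of the dotted line, and the 6 with the highest among members past the test without overlap, right of it. The short lines are group means. MRPL12 separates most widely, at 306 to 332 CPM against 117 to 127 CPM, and MRPS18A is the only gene with ILL above control.

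MRPS18A was the only member that rose. It had 67.3, 69.2 and 70.5 CPM in control libraries and 81.5, 77.7 and 74.7 CPM in ILL libraries. The groups did not overlap, and the log2 fold change was 0.18 (95% interval 0.05 to 0.30, adjusted p = 0.0101, edgeR). The call was lost in 6 of 15 alternatives, among them scaling by library size alone at 0.11 (adjusted p = 0.107), the removal of control replicate 1 at 0.15 (adjusted p = 0.0545) and the removal of ILL replicate 1 at 0.14 (adjusted p = 0.0568). The MRPS18A gene, at chr6:43671303-43687791 on the minus strand, overlaps RSPH9 on the opposite strand.

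MRPS18A, MRPS18B and MRPS18C are homologs of a single bacterial protein, S18, and sit at separate places, with MRPS18A in the large subunit and the other 2 in the small subunit. MRPS18C, which occupies the bacterial position, had 38.4, 39.9 and 35.9 CPM in control libraries and 28.8, 25.6 and 28.7 CPM in ILL libraries, a log2 fold change of -0.46 (adjusted p = 7.31e-06, edgeR). MRPS18B had 92.4, 96.0 and 89.9 CPM in control libraries and 74.1, 68.7 and 74.6 CPM in ILL libraries, a log2 fold change of -0.36 (adjusted p = 7.18e-06, edgeR). The 2 small subunit homologs thus fell while the large subunit homolog had a positive value. MRPS30, the other large subunit protein with a small subunit name, had 39.1, 39.2 and 38.9 CPM in control libraries and 24.4, 25.3 and 23.6 CPM in ILL libraries, a log2 fold change of -0.68 (adjusted p = 7.92e-09, edgeR) equal to the median of its subunit. MRPS36, which is not a ribosomal protein, had 25.7, 26.9 and 24.1 CPM in control libraries and 27.5, 23.2 and 31.5 CPM in ILL libraries. Its groups overlapped and its log2 fold change was 0.10 (95% interval -0.09 to 0.30, adjusted p = 0.338, edgeR), with 0.21 (adjusted p = 0.0421) without ILL replicate 2 and -0.010 without ILL replicate 3. Without MRPS36, 70 of 76 tested ribosomal members fell and the median was -0.61.

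Current ribosomal protein names mark a bacterial position with u or b and a mitochondrial one with m, and MRPS18A and MRPS18B carry the latter although they are homologs of S18. By these names, 42 of 45 tested proteins of the bacterial class fell, with a median log2 fold change of -0.68, and 28 of 31 of the mitochondrial class fell and 1 rose, with a median of -0.55. Within the large subunit the medians were -0.71 for 30 proteins of the bacterial class and -0.55 for 21 of the mitochondrial class. Within the small subunit they were -0.46 for 15 and -0.50 for 10. These medians are descriptions, and their differences were not tested.

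Proteins of the mitoribosome that carry other symbols moved with the members. All 5 of them fell, with a median of -0.64. PTCD3, a pentatricopeptide repeat protein at the mRNA entry of the small subunit, had 76.3, 71.9 and 75.6 CPM in control libraries and 35.8, 38.4 and 41.4 CPM in ILL libraries, a log2 fold change of -0.95 (adjusted p = 3.15e-12, edgeR). DAP3, a GTP-binding protein of the small subunit head first described as a mediator of cell death, had 126, 124 and 133 CPM in control libraries and 82.5, 92.2 and 95.9 CPM in ILL libraries, a log2 fold change of -0.50 (adjusted p = 6.94e-08, edgeR). AURKAIP1 and CHCHD1, both small subunit proteins, fell by 0.70 and 0.30 on the log2 scale.

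Mitoribosome assembly factors, which process and modify the rRNAs and mount the proteins, fell in 23 of 27 tested genes and rose in none, with a median of -0.47. GTPBP6 of this list had 0 counts in all libraries and was not tested. C1QBP, a matrix protein needed for mitochondrial translation, had 154, 164 and 146 CPM in control libraries and 65.0, 65.9 and 67.8 CPM in ILL libraries, a log2 fold change of -1.23 (adjusted p = 1.26e-15, edgeR). RBFA, a maturation factor of the small subunit, fell by 1.19 on the log2 scale (adjusted p = 4.05e-08, edgeR), a value that was -0.70 with limma on log2(FPKM + 1), a scale that understates the change of low genes. The smallest decreases past the test were those of the GTPase GTPBP10 and the pseudouridine synthase TRUB2, at -0.22 and -0.21, and both missed the threshold without control replicate 1 (adjusted p = 0.107 and 0.0509, edgeR). NOA1, METTL15, MTG1 and YBEY, named after their values were seen, did not pass, at log2 fold changes of -0.08 to 0.45.

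Among 19 mitochondrial translation factors 14 fell and 2 rose, with a median of -0.38. SLIRP and LRPPRC, partners in a complex that stabilizes mitochondrial mRNAs, fell by 0.94 and 0.90 on the log2 scale (adjusted p = 1.19e-12 and 6.46e-14, edgeR). MTIF3, an initiation factor that acts on the small subunit, rose, with 15.2, 14.5 and 10.7 CPM in control libraries and 22.9, 24.5 and 23.9 CPM in ILL libraries, a log2 fold change of 0.82 (adjusted p = 4.01e-07, edgeR). HEMK1, which methylates mitochondrial release factors, rose by 0.61 on the log2 scale (adjusted p = 0.000609, edgeR) at a low level of 5.93 ± 0.761 CPM in controls and 9.03 ± 0.579 CPM with ILL (SD, n = 3). With limma on log2(FPKM + 1) and no filter its value was 0.16, and it was not kept by the filter on a mean FPKM of at least 1. MTRES1, PDF and MTRF1L, named after their values were seen, did not pass, at -0.18 to -0.04.

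Regulators of mitochondrial transcription and biogenesis were more mixed, with 10 of 15 lower, 3 higher and a median of -0.44. TFAM, which packages mitochondrial DNA and starts its transcription, had 86.5, 90.4 and 81.9 CPM in control libraries and 32.4, 30.4 and 34.2 CPM in ILL libraries, a log2 fold change of -1.42 (adjusted p = 1.40e-15, edgeR). PPRC1, a growth-related coactivator of the PGC-1 family, had 65.1, 66.6 and 67.4 CPM in control libraries and 25.5, 23.7 and 28.2 CPM in ILL libraries, a log2 fold change of -1.36 (adjusted p = 1.17e-14, edgeR). Both log2 fold changes were near that of MRPL12, the most reduced member. ESRRA and GABPA rose slightly, by 0.14 and 0.19 on the log2 scale (adjusted p = 0.0301 and 0.0372, edgeR), and were lost in 7 and 8 of 15 alternatives. The third gene that rose, PPARGC1A, another PGC-1 family coactivator named after its value was seen, had 1, 5 and 9 counts in control libraries and 18, 42 and 30 counts in ILL libraries.

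The import machinery that brings ribosomal proteins into the organelle fell in 19 of 22 genes and rose in none, with a median of -0.60. TOMM40, the channel of the outer membrane, had 326, 329 and 325 CPM in control libraries and 99.8, 100.3 and 99.5 CPM in ILL libraries, a log2 fold change of -1.71 (adjusted p = 1.17e-19, edgeR). TIMM10, a carrier between the membranes, fell by 1.29 on the log2 scale (adjusted p = 7.99e-15, edgeR). DNAJC19 and TIMM44, parts of the inner membrane motor, fell by 0.32 and 0.16 on the log2 scale, and TIMM44, with overlapping groups, was lost in 7 of 15 alternatives. PAM16, PMPCB and TIMM17B, named after their values were seen, did not pass, at -0.44 to -0.09.

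**Figure D4:**
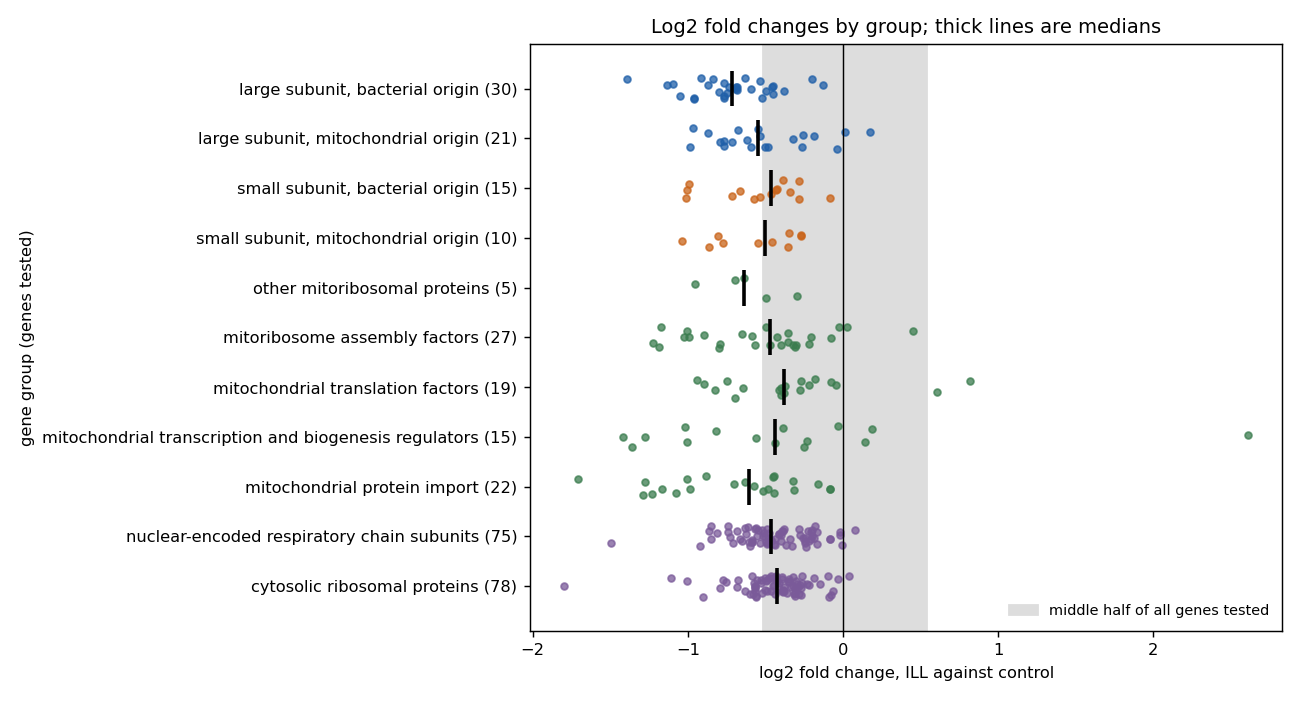
Log2 fold changes (horizontal axis, ILL against control) of single genes in 4 groups of members (blue for the large and orange for the small subunit), 5 companion groups (green) and 2 reference groups (purple), where origin follows the current protein names, with the number of genes tested in brackets and a thick line at each median. The grey band spans the middle 50% of all genes tested, from -0.51 to 0.54. Group medians run from -0.71 to -0.38, and the point at 2.61 is PPARGC1A.

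The members were set beside 2 other families of short mRNAs. Among 78 tested cytosolic ribosomal proteins 72 fell and none rose, with a median log2 fold change of -0.42. Among 75 nuclear-encoded subunits of the respiratory chain, counted here together with those of ATP synthase, 69 fell and none rose, with a median of -0.47. The share of genes that fell was thus 92.3% and 92%, next to 90.9% of the members. The summed CPM of cytosolic ribosomal proteins went from 80095 ± 339 CPM in controls to 59653 ± 2783 CPM with ILL (SD, n = 3), a ratio of 0.745, and that of respiratory chain subunits from 13598 ± 112 CPM to 9936 ± 457 CPM (SD, n = 3), a ratio of 0.731. The ratio of the members, 0.643, was below both, and no test of this difference was made. Members were short, with a median length of 1540 bases against 3994 bases over all genes tested. After a smooth trend of log2 fold change with gene length was removed, the medians were -0.51 for the members, -0.27 for cytosolic ribosomal proteins, -0.31 for respiratory chain subunits and -0.00998 for all genes tested. The part of gene length in the members' change was not tested beyond this.

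**Figure D5:**
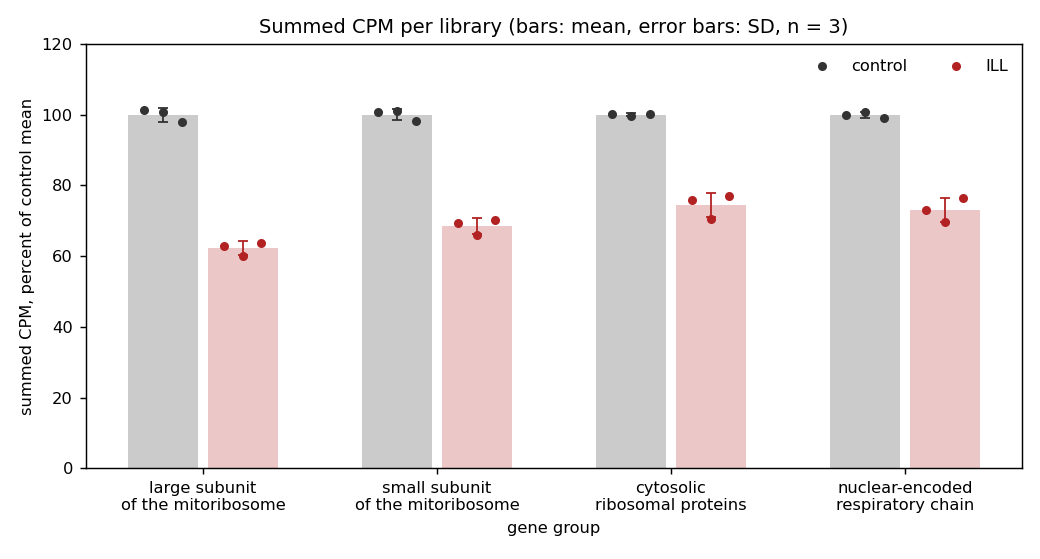
Summed CPM per library as a percentage of the control mean (vertical axis from 0), with control in dark and ILL in red. Groups are the large and small subunits of the mitoribosome, the cytosolic ribosomal proteins, and the nuclear-encoded respiratory chain together with ATP synthase. Points are the 3 libraries, bars the mean and error bars the SD (n = 3). The ILL means correspond to ratios of 0.622, 0.686, 0.745 and 0.731.

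Promoters, which the choice of members did not use, were searched for motifs of factors known to act on nuclear genes for mitochondria and on stress genes. RefSeq promoters on GRCh38.p14, each from 250 bases before to 50 bases after the annotated start, were matched for 69 of 78 members. Motifs were searched on both strands, each on its own, so that overlapping matches of different motifs were both counted. Shares are of genes with a promoter, and a gene with several promoters was a match if any of them held the motif. The ETS motif CCGGAAG, the letters bound by GABPA and related factors, was in 43.5% of members, in 22.1% of tested genes and in 12.2% of all genes. The YY1 motif AAGATGGCG was in 18.8% of members, in 4.61% of tested genes and in 2.14% of all genes. Either motif was in 39 of 69 members or 56.5%, against 25.5% of tested genes, and both were in 4. The NRF1 motif, GCGC and TGCGC separated by any 1 base, was in 13.0% of members and in 12.8% of tested genes. Only with A as that base is it a palindrome, and this form was in 1.45% of members and 2.5% of tested genes. The E-box CACGTG was in 13.0% and 12.3%. The CCAAT box was in 33.3% and 42.9%, and the ATF4 element TGATGNAAN in 1.45% and 2.74%.

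The following stretches, each 120 bases before to 30 bases after the RefSeq start, are written 5′ to 3′ along the gene with matched motifs in capitals. They show a strongly reduced member with several motifs, another with the NRF1 motif and 2 reduced members with the ETS motif. The last 2 are the only member that rose and the most reduced member, whose stretch holds none of the motifs.
MRPL36, chr5:1799808-1799957, minus strand: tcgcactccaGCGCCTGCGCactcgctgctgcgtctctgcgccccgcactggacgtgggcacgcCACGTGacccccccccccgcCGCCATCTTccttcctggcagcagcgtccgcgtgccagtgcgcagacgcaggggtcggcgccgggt
MRPS9, chr2:105037949-105038098, plus strand: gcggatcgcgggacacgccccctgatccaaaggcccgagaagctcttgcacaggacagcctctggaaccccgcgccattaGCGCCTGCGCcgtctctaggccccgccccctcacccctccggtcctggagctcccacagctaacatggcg
MRPL3, chr3:131502942-131503091, minus strand: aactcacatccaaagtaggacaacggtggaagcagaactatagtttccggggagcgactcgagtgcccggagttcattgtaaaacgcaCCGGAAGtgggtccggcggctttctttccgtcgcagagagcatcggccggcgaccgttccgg
MRPS12, chr19:38930824-38930973, plus strand: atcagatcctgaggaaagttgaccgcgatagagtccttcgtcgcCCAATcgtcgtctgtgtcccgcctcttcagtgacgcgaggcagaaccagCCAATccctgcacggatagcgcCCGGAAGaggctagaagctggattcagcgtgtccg
MRPS18A, chr6:43687762-43687911, minus strand: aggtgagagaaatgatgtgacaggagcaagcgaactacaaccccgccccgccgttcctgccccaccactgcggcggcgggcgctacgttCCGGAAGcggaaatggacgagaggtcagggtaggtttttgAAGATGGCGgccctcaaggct
MRPL12, chr17:81703247-81703396, plus strand: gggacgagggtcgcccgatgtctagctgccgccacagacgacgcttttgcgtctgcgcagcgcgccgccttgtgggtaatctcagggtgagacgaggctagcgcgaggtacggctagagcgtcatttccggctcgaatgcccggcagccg
In MRPL36 the capitals mark the NRF1 motif, the E-box and the YY1 motif on the opposite strand. In MRPS9 they mark the NRF1 motif and in MRPL3 the ETS motif. In MRPS12 they mark the CCAAT box at 2 places and the ETS motif, and in MRPS18A the ETS and YY1 motifs.

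Log2 fold changes of members with and without a motif were set side by side as a description. The median log2 fold change was -0.52 for 30 members with the ETS motif and -0.69 for 38 tested members without it. It was -0.68 for 12 with the YY1 motif and -0.58 for 56 without. For the NRF1 motif with any middle base it was -0.87 for 9 members with it and -0.59 for 59 without. For the CCAAT box it was -0.71 for 23 members with it and -0.57 for 45 without. For the E-box it was -0.69 for 9 with it and -0.62 for 59 without. The NRF1 palindrome and the ATF4 element were each in only 1 tested member. Of the 4 members with both the ETS and YY1 motifs, MRPS18A rose and MRPS10 did not pass. MRPL52 and MRPL38, the others, fell, with log2 fold changes of -0.77 and -0.62. MRPL12 and MRPL11 fell most and carry none of the motifs searched in their 300 bases. MRPS14 carries none either, and its log2 fold change was -0.29. MRPL52, MRPL38 and MRPS14 were named after their values were seen. A match of letters is not a binding site. The mRNAs of GABPA, YY1 and NRF1 were measured in the same libraries, while that of ATF4 was not followed here. GABPA had 25.9, 28.5 and 26.5 CPM in control libraries and 33.6, 29.2 and 29.3 CPM in ILL libraries. YY1, named here for its motif, had a log2 fold change of -0.03 (adjusted p = 0.583, edgeR). NRF1, also named for its motif after its value was seen, had 16.9, 16.7 and 17.2 CPM in control libraries and 8.03, 8.89 and 8.41 CPM in ILL libraries, a log2 fold change of -1.0 (adjusted p = 1.12e-08, edgeR).

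Reads of some members may be shared with other genes. In the annotation 16 of 78 members share exonic bases with another gene on the same strand, 1 of them, MRPL12, over more than 50% of its length, and 29 overlap a gene on the opposite strand. Whether the counting used strand is not given in the sources used here, so reads of a member and of a gene opposite to it cannot be told apart. The mRNAs encoded by mitochondrial DNA, which the mitoribosome translates, were not analysed here.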

How the data were processed

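RNA-seq of HCCC9810 cells was analysed in 6 libraries, 3 with ILL and 3 with vehicle, grouped by the sample labels. The authors deposited raw counts for each gene symbol and a table of FPKM values, with 1 column per library and nothing pooled. Counts divided by gene length and library total gave 100% of the 88055 nonzero FPKM values to within 0.1%. The submitters' processing notes name GRCh38 and DESeq2. The aligner, counting program and strand setting are not given in the sources used here.

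Genes were filtered with filterByExpr, scaled by TMM and tested with edgeR's quasi-likelihood test (edgeR 4.0.16, R 4.3.3), adjusted over all 13066 genes tested by the Benjamini-Hochberg method. Depth was 34282764 to 37758569 counts per library, and the biological coefficient of variation was 0.0717. Replicate libraries were distinct, with chi-square values per degree of freedom of 5.15 to 11.8 between them. CPM values are TMM-scaled, and lists are described by counts and medians with no test. The length trend was a lowess fit (span 0.3) of log2 fold change on log2 gene length.

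Members, roles and companion lists were chosen with earlier results of these data known. Named members were, among those called without overlap, the 6 at each end of the log2 fold change, then the 3 highest and 3 lowest by FPKM, the one nearest 0, 13 taken for their roles, the one not tested and those whose call or direction changed under an alternative. In each companion list at most 2 called genes at each end with a mean of at least 1 CPM were named. Positions come from GENCODE release 29 on GRCh38, and promoters from RefSeq on GRCh38.p14, with 64 of 69 starts inside a GENCODE transcript. Alternatives were scaling by DESeq2's size factors or by library size only, either no filter or 10 counts in every library, the Wald test of DESeq2 1.42.0, a replicate block, each library left out in turn, and limma (3.58.1) on log2 of FPKM plus 1 or 0.1, with or without a mean FPKM of at least 1.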

Additional observations from a re-analysis of the deposited data

How the results depend on the processing

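The members' decrease held its direction under all 15 alternative fits, with 68 to 73 members lower, and 68 of 77 tested members kept both direction and call in each. Over all genes tested, 30.3% to 44.7% were lower and 25.9% to 37.1% higher in these fits. The median of all genes was itself lower in some, at -0.070 with library size only. It was -0.086 and -0.101 with limma on filtered FPKM at pseudocounts of 1 and 0.1. With library size only, 0 members rose, 12 were DEGs, the medians were -0.67 for all members, -0.75 for the large and -0.53 for the small subunit, and the summed ratio was 0.613. With limma on log2(FPKM + 1) and a mean FPKM of at least 1, 0 rose, and the medians were -0.64 for all members and -0.52 for the small subunit. With a pseudocount of 0.1, 0 rose, 12 were DEGs, and the medians were -0.67, -0.74 and -0.53. With FPKM plus 1 and no filter, 0 rose and the medians were -0.64 and -0.51. With the gene length trend removed, the medians were -0.51 for all members and -0.53 for the large subunit. Without 1 library, 0 to 2 members rose, 6 to 9 were DEGs, and the medians ranged from -0.65 to -0.58 for all members, from -0.68 to -0.64 for the large and from -0.51 to -0.45 for the small subunit. The rise of MRPS18A was lost without control replicate 1 or ILL replicate 1, and MRPS36 joined it without ILL replicate 2.

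Removing the gene length trend turned the sign of MRPL54, which had passed, to 0.098 and that of MRPL45 to 0.052. In the 15 alternative fits only members that did not pass the test changed sign. MRPL48 was -0.055 with library size only, -0.050 and -0.051 with limma on filtered FPKM at pseudocounts of 1 and 0.1, -0.050 with limma on FPKM plus 1 without a filter, and between -0.056 and 0.067 with 1 library left out. With 1 library left out MRPL45 lay between -0.14 and 0.034 and MRPS36 between -0.010 and 0.21. Why these values moved was not tested.

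Same-numbered libraries showed no shared deviation from their group means, with correlations of 0.0107, -0.0218 and -0.0179. These values cannot show whether the libraries were paired by culture or day, which the labels do not state. With the replicate block, 70 members fell, 1 rose, 7 were DEGs and the medians were -0.60, -0.68 and -0.46, with no member's call changed. The spread between 3 libraries per group limits what can be called for members near no change, and low counts limit MRPS28 and MRPL23, which have the largest standard errors.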
